A study of Homo sapiens with 6 samples.

Results

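The 36 genes described here are encoded on the mitochondrial chromosome, the small circular genome that human cells carry inside their mitochondria. They were taken as all genes of the deposited table whose symbol begins with MT-, and GENCODE 29 places every one of them on the mitochondrial chromosome. They are 13 mRNA genes, 2 rRNA genes and 21 tRNA genes, out of 22153 genes in the table. GENCODE 29 lists 37 mitochondrial genes, and MT-TQ, the glutamine tRNA gene, was not analysed here.

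The RNA was polyadenylated RNA of EA.hy926 cells, a single human line that descends from a fusion of umbilical vein endothelium and A549 lung carcinoma. The groups were 3 libraries of cells held at 1% O2 for 8 h (hypoxia) and 3 libraries of cells at 20% O2 (normoxia), all from the same line in high-glucose DMEM with serum. Each library held 17226736 to 18652704 reads assigned to genes. Nothing in the labels ties the replicates to independent cultures, and the spread behind each p-value may therefore be technical. The question named by the series' design is which genes change with 8 h of hypoxia.

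Human mitochondrial DNA is transcribed from both strands into long precursors. Transcripts read as the plus strand of the reference carry both rRNAs, most tRNAs and every mRNA except MT-ND6, and those read as the minus strand carry MT-ND6 and the remaining tRNAs. The tRNAs lie between the other genes, and their excision releases the mRNAs and rRNAs, most of which then receive short poly(A) tails. MT-ND6 mRNA is known as the member without such a tail, and mature tRNAs are too short for most mRNA libraries. The mRNAs encode subunits of respiratory complexes I, III and IV and of ATP synthase (complex V), all of which run or serve oxygen-dependent ATP production. In bulk samples, fewer cells of a type and less RNA per cell cannot be told apart, nor can less synthesis and faster decay.

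The table keeps 28 genes on the plus strand (12 mRNAs, 2 rRNAs and 14 tRNAs) and 8 on the minus strand (MT-ND6 and 7 tRNAs). Of the 13 mRNA genes, 7 end in a complete stop codon in GENCODE 29. The other 6 (MT-ND1, MT-ND2, MT-CO3, MT-ND3, MT-ND4 and MT-CYB) end inside a codon, which the poly(A) tail completes. Counting had neighbours to tell apart. MT-ATP8 and MT-ATP6, which encode ATP synthase subunits, share 46 bases of the plus strand (GRCh38, chrM:8527-8572). The shared stretch runs from the start codon of MT-ATP6 to the stop codon of MT-ATP8, both in capitals, and reads on it belong to both genes.
MT-ATP8/MT-ATP6 overlap: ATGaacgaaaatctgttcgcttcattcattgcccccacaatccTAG
Among the tRNA genes, MT-TN (asparagine, chrM:5657-5729), MT-TC (cysteine, chrM:5761-5826) and MT-TP (proline, chrM:15956-16023) held 96.7% to 99.8% of the tRNA reads of each library, and all 3 lie on the minus strand. Their sequences are shown because most tRNA values below rest on them. They are the GENCODE 29 transcripts, with T for U, and capitals mark the anticodon.
MT-TN: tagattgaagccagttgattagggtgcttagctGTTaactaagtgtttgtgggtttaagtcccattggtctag
MT-TC: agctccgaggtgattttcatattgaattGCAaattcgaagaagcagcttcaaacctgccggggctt
MT-TP: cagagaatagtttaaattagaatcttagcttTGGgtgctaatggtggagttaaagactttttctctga

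Values below are scaled reads, whole reads over the library's size factor as deposited, and n is 3 per group throughout. BNIP3, a mitophagy receptor induced by hypoxia, stood at 6695 ± 722 scaled reads in hypoxia and 596 ± 89.2 in normoxia (SD), and its adjusted p was 0.00207 by limma. The log2 differences of the hypoxia targets PGK1, LDHA and ANGPTL4 were 1.77, 1.70 and 4.91. Endothelial markers were in the table for 11 of 11 genes, with summed levels of 77524 to 171378 in hypoxia and 71185 to 134484 in normoxia, although CLDN5 was at or near 0. Epithelial markers were present for 7 of 9 genes, with sums of 48492 to 79318 in hypoxia and 55488 to 89051 in normoxia. These were almost all KRT7, KRT8 and KRT18, and EPCAM had at most 17.9 and KRT19 at most 19.0 scaled reads. Of 6 leukocyte markers 3 were in the table, with sums of 35.3 to 90.3 in hypoxia and 16.0 to 102 in normoxia. LYZ, at 16.0 to 98.5 over the 6 libraries, gave most of these sums. Of 7 fibroblast and mural markers 5 were in the table, with sums of 1134 to 1295 in hypoxia and 829 to 1941 in normoxia. RGS5, at 645 to 1822 over the 6 libraries, gave most of them, and COL1A1 and COL1A2 were at or near 0. Libraries of the same group differed in how levels depended on GC content. The slope of log2 level per 10 points of GC was -0.14, 0.25 and -0.12 in hypoxia replicates 1, 2 and 3 and 0.33, 0.08 and -0.40 in normoxia replicates 1, 2 and 3.

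No mitochondrial gene passed the test. The log2 level of each gene was compared between groups with limma over all 10237 genes above a filter on low levels, with Benjamini-Hochberg adjustment and a threshold of 0.05 on the adjusted p. Of the 36 members, 29 passed the filter and 0 were called, beside 0.0977% of all genes tested, all of them higher in hypoxia. At an unadjusted p under 0.05 there were 2 of 29 members, beside 2.69% of all genes. That count was 7 without hypoxia replicate 1 and 6 without normoxia replicate 3, beside 2.46% and 5.55% of all genes, and 6 with libraries scaled to their totals, beside 2.73%. DESeq2 and edgeR each also called 0 members, beside 0.488% (0.0488% lower in hypoxia) and 0.0977% of all genes. Each had 3 of 29 members at an unadjusted p under 0.05, beside 2.97% of all genes by DESeq2 and 2.42% by edgeR. Groups did not overlap for 2 of the 29, MT-RNR1 and MT-TN, both higher in hypoxia. That is 6.90%, near the 7.48% of all genes tested, of which 4.77% were higher in hypoxia.

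**Figure D1:**
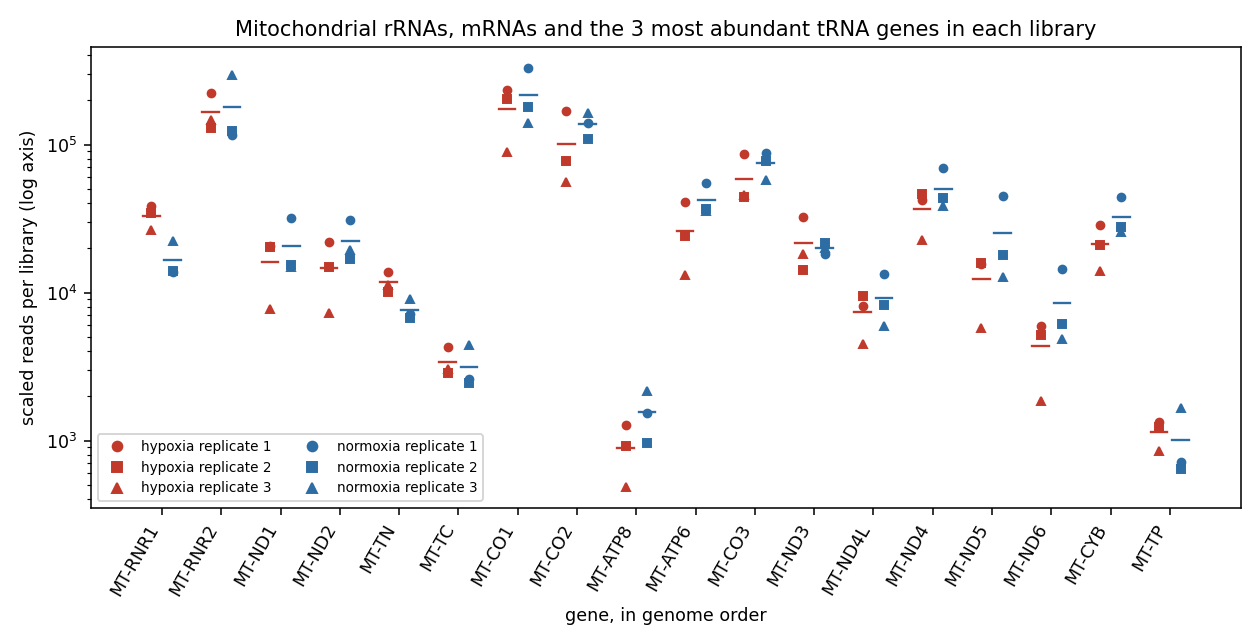
Scaled reads per library (log axis) of both rRNAs, the 13 mRNAs and the 3 most abundant tRNA genes, in genome order. Hypoxia libraries stand left (red) and normoxia libraries right (blue) for each gene, symbols mark replicates and bars mark group means. MT-RNR1 and MT-TN are the genes whose groups do not overlap, and hypoxia replicate 3 is lowest for 11 of the 13 mRNAs.

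No mRNA passed the test, and libraries of 1 group differed widely. Of 13 mRNAs, 12 had a negative log2 difference (hypoxia minus normoxia), and 0 had groups that did not overlap. Their median was -0.59, beside 0.00 over all genes tested, of which 49.4% were negative. The spread was shared: normoxia replicate 1 was highest for 10 of the 13 mRNAs and hypoxia replicate 3 was lowest for 11. That median depended on single libraries. Leaving out hypoxia replicate 3 gave -0.25, with 9 of 13 mRNAs negative. It was -0.39 when normoxia replicate 1 was left out, and -0.89 when hypoxia replicate 1 was.

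Cytochrome c oxidase (complex IV) mRNAs gave most of the mRNA reads. MT-CO1, its catalytic core subunit, had 233549, 202078 and 89429 scaled reads in hypoxia replicates 1 to 3 and 327734, 180358 and 139516 in normoxia replicates 1 to 3. The groups overlapped, and the log2 difference was -0.32 (SE 0.44, limma adjusted p = 1.00). Its sign turned without hypoxia replicate 3 (0.10) and without normoxia replicate 1 (0.03). MT-CO2, the subunit that takes electrons from cytochrome c, had 168819.8, 77303 and 56215 in hypoxia and 140799, 108231 and 163455 in normoxia. Hypoxia replicate 1 exceeded every normoxia library, so these groups overlapped too, at a log2 difference of -0.59 (SE 0.40). It was -0.25 without hypoxia replicate 3 and -1.04 without hypoxia replicate 1. MT-CO3, the third core subunit, had 85878, 43915 and 45651 in hypoxia and 88074, 77663 and 57944 in normoxia, a log2 difference of -0.40 (SE 0.31). Per length, on the FPKM scale, the highest level among the mRNAs was that of MT-CO2, at 8249 in hypoxia and 11254 in normoxia, and MT-CO1 stood at 6354 in hypoxia and 7837 in normoxia.

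The ATP synthase mRNAs had log2 differences below the mRNA median. MT-ATP6, whose protein forms part of the proton channel, had 40759, 23976 and 13213 scaled reads in hypoxia and 54639.8, 36665 and 35448 in normoxia. Hypoxia replicate 1 lay inside the normoxia range and the others below it. The log2 difference was -0.82 (95% interval -1.75 to 0.11, limma adjusted p = 1.00), and -0.41 without hypoxia replicate 3. MT-ATP8, its partner on the same mRNA, had 1270.4, 915 and 488 in hypoxia and 1533, 968 and 2146 in normoxia, a log2 difference of -0.83 (95% interval -1.78 to 0.12), or -0.45 without hypoxia replicate 3. As a share of mRNA reads, MT-ATP6 gave 5.77%, 4.85% and 4.61% in hypoxia and 6.20%, 6.54% and 6.56% in normoxia. It was the single mRNA of the 13 whose share did not overlap between groups. By scaled reads, groups did not overlap for 7.48% of all genes tested. With 1 of 13 near that background, the separation is not read as particular to MT-ATP6. It was picked out after the shares were seen, so no test is given. Reads that also match a nuclear copy of this gene may bear on the share, as described below.

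The mRNAs of complex I held both the lowest and the highest log2 difference of the 13. MT-ND5, a proton-pumping membrane subunit, had 15567, 15863 and 5743 scaled reads in hypoxia and 44804, 17974 and 12757 in normoxia. Normoxia replicate 1 stood far above the other libraries. MT-ND6, another membrane subunit and the only mRNA gene of the minus strand, had 5943, 5201 and 1845 in hypoxia and 14527, 6163 and 4819 in normoxia. The same library was highest, and the log2 differences were -0.95 (SE 0.54) for MT-ND5 and -0.97 (SE 0.54) for MT-ND6, the lowest of the 13. Without hypoxia replicate 3 they were -0.47 for MT-ND5 and -0.44 for MT-ND6, and without normoxia replicate 1 they were -0.43 for MT-ND5 and -0.50 for MT-ND6. MT-CYB, the cytochrome b of complex III, had 28649.8, 20934 and 13879 in hypoxia and 44551, 27595 and 25499 in normoxia, a log2 difference of -0.64 (95% interval -1.40 to 0.12). MT-ND3, a small complex I subunit, was the mRNA without a negative difference. It had 32593, 14123 and 18211 in hypoxia and 18177, 21708 and 20064 in normoxia. Its hypoxia libraries lay on both sides of the normoxia range, and the log2 difference of 0.03 (95% interval -0.69 to 0.75) turned to -0.05 when libraries were scaled to their totals. The remaining complex I subunits lie in the membrane arm too, and their groups all overlapped. MT-ND1 had 20512, 20300.2 and 7683 in hypoxia and 31906, 15318 and 14913 in normoxia, a log2 difference of -0.40 (SE 0.45) that turned to 0.07 without hypoxia replicate 3. MT-ND2 had 22119, 14769 and 7289 in hypoxia and 30919, 16753 and 19326 in normoxia, a log2 difference of -0.69 (SE 0.42), or -0.25 without hypoxia replicate 3. In both, hypoxia replicate 3 was the lowest library and normoxia replicate 1 the highest. MT-ND4L and MT-ND4 overlap by 7 bases and are carried on a single mRNA. MT-ND4L had 8144, 9426 and 4509 in hypoxia and 13365, 8181 and 5977 in normoxia, a log2 difference of -0.31 (SE 0.38). MT-ND4 had 42194, 46019 and 22682 in hypoxia and 69889, 43282 and 38229 in normoxia, a log2 difference of -0.46 (SE 0.34). The order of the libraries was the same in the hypoxia group for these 2 genes, with replicate 2 highest and replicate 3 lowest.

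By complex, mRNA shares overlapped between groups for complexes I, III and IV. Complex I gave 23.3% ± 2.31 in hypoxia and 23.3% ± 1.96 in normoxia, and complex IV gave 67.1% ± 1.94 in hypoxia and 65.1% ± 1.83 in normoxia (SD). Complex V, of which MT-ATP6 is nearly all, gave 5.95%, 5.03% and 4.78% in hypoxia and 6.38%, 6.71% and 6.96% in normoxia. This largely restates the MT-ATP6 shares above and is not a separate result.

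**Figure D2:**
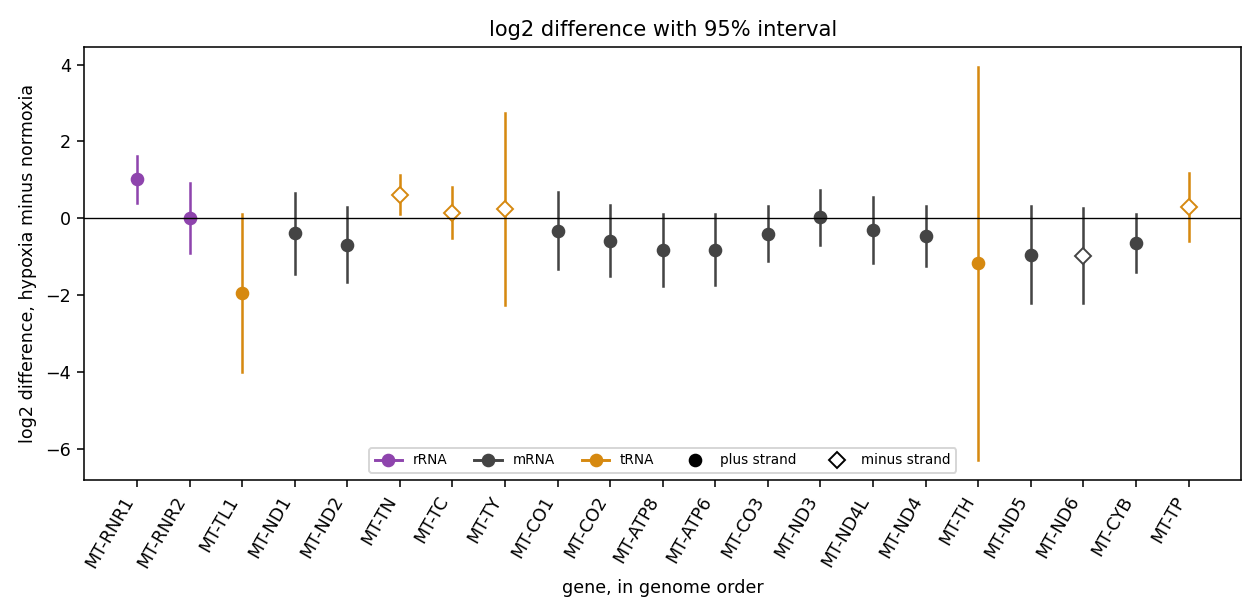
log2 difference (hypoxia minus normoxia) with its 95% interval for the rRNAs, mRNAs and tRNA genes with a mean of at least 10 scaled reads, in genome order. Colours mark the class and open diamonds the minus strand. All intervals except those of MT-RNR1 and MT-TN include 0, and neither of these passed after adjustment.

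Of the rRNAs, the small one had the lowest unadjusted p of all members, and the large one had a difference near 0. MT-RNR1, the 12S rRNA of the small mitochondrial ribosomal subunit, had 38327, 34424 and 26427 scaled reads in hypoxia and 13679.5, 13983 and 22243 in normoxia. Every hypoxia library was above every normoxia library, a 1.99-fold ratio of means. The log2 difference was 1.01 (SE 0.26, 95% interval 0.41 to 1.62). It had an unadjusted p of 0.00495 and an adjusted p of 0.937 by limma, and 0.139 to 1.00 over 19 alternative settings, lowest without normoxia replicate 3. MT-RNR2, the 16S rRNA of the large subunit, had 223650.2, 128992 and 146567 in hypoxia and 115270.0, 123442 and 295447 in normoxia. Its groups overlapped fully, with the highest library in normoxia, and its log2 difference of 0.00 (95% interval -0.91 to 0.92) changed sign in 8 of 19 alternatives. Both rRNAs come from the same strand and lie side by side, separated by MT-TV.

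Within each library, the rRNAs were also set against each other and against the mRNAs. The ratio of MT-RNR1 to MT-RNR2 reads was 0.171, 0.267 and 0.180 in hypoxia and 0.119, 0.113 and 0.0753 in normoxia. All hypoxia libraries lay above all normoxia libraries, and the means of 0.206 ± 0.0527 in hypoxia and 0.102 ± 0.0236 in normoxia (SD) differed 2.01-fold. Relative to the summed mRNA reads, MT-RNR1 gave 5.43%, 6.96% and 9.21% in hypoxia and 1.55%, 2.49% and 4.12% in normoxia. These ratios do not depend on the size factors, but they were chosen after the values were seen, and no test is given. The libraries hold polyadenylated RNA, so rRNA levels in them need not follow those in the cell.

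Over all classes, 4 within-library measures were compared with two-sided exact permutation tests, where 3 against 3 libraries cannot go below p = 0.10. Mitochondrial genes took 5.37%, 3.48% and 2.80% of reads in hypoxia and 5.59%, 4.34% and 5.03% in normoxia. The groups overlapped, and the difference of means was -1.11 percentage points (exact p = 0.30, 0.40 adjusted over the 4). The ratio of rRNA to mRNA reads was 0.371, 0.330 and 0.603 in hypoxia and 0.146, 0.245 and 0.588 in normoxia (exact p = 0.50, also 0.50 adjusted). MT-ND6 as a share of mRNA reads, the light-strand share, was 0.842%, 1.05% and 0.643% in hypoxia and 1.65%, 1.10% and 0.892% in normoxia (exact p = 0.20, 0.40 adjusted). The tRNA genes' share of mitochondrial reads was 1.98%, 2.12% and 3.19% in hypoxia and 1.06%, 1.40% and 1.74% in normoxia. Only this measure of the 4 had groups that did not overlap, at the smallest p the design allows (exact p = 0.10, 0.40 adjusted). As a share of all reads, the tRNA genes gave 0.106%, 0.0737% and 0.0892% in hypoxia and 0.0592%, 0.0605% and 0.0875% in normoxia. Those groups overlapped. For the 3 shares, 95% Wilson intervals of single libraries were at most 0.0974 percentage points wide; none was computed for the ratio.

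Measures were also set against the sign of the libraries' GC slope. The slopes were fitted on these same libraries, with mitochondrial genes among the genes. A split of 3 against 3 libraries cannot go below an exact p of 0.10, and none was tested. More measures were looked at than are given here, and some of those also split, so the splits below are descriptions. In the 3 libraries with a positive GC slope (hypoxia replicate 2 and normoxia replicates 1 and 2), rRNA to mRNA ranged from 0.146 to 0.330, and in the 3 with a negative slope (hypoxia replicates 1 and 3 and normoxia replicate 3) from 0.371 to 0.603. The ratio of MT-CO2 to MT-CO1, added after the values were seen, split the same way, at 0.383 to 0.600 with a positive slope and 0.629 to 1.17 with a negative one. The light-strand share was 1.05% to 1.65% with a positive slope and 0.643% to 0.892% with a negative one. The tRNA genes' share of all reads did split, at 0.0592% to 0.0737% with a positive slope and 0.0875% to 0.106% with a negative one. Their share of mitochondrial reads did not split, at 1.06% to 2.12% with a positive slope and 1.74% to 3.19% with a negative one. The mitochondrial share of all reads did not either, at 3.48% to 5.59% with a positive slope and 2.80% to 5.37% with a negative one. The MT-RNR1 to MT-RNR2 ratio did not split, at 0.113 to 0.267 with a positive slope and 0.0753 to 0.180 with a negative one. The part of the GC trend in these differences was not tested, and after a correction of each library for GC content the log2 difference was 0.97 for MT-RNR1 and -0.63 for the median mRNA.

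**Figure D3:**
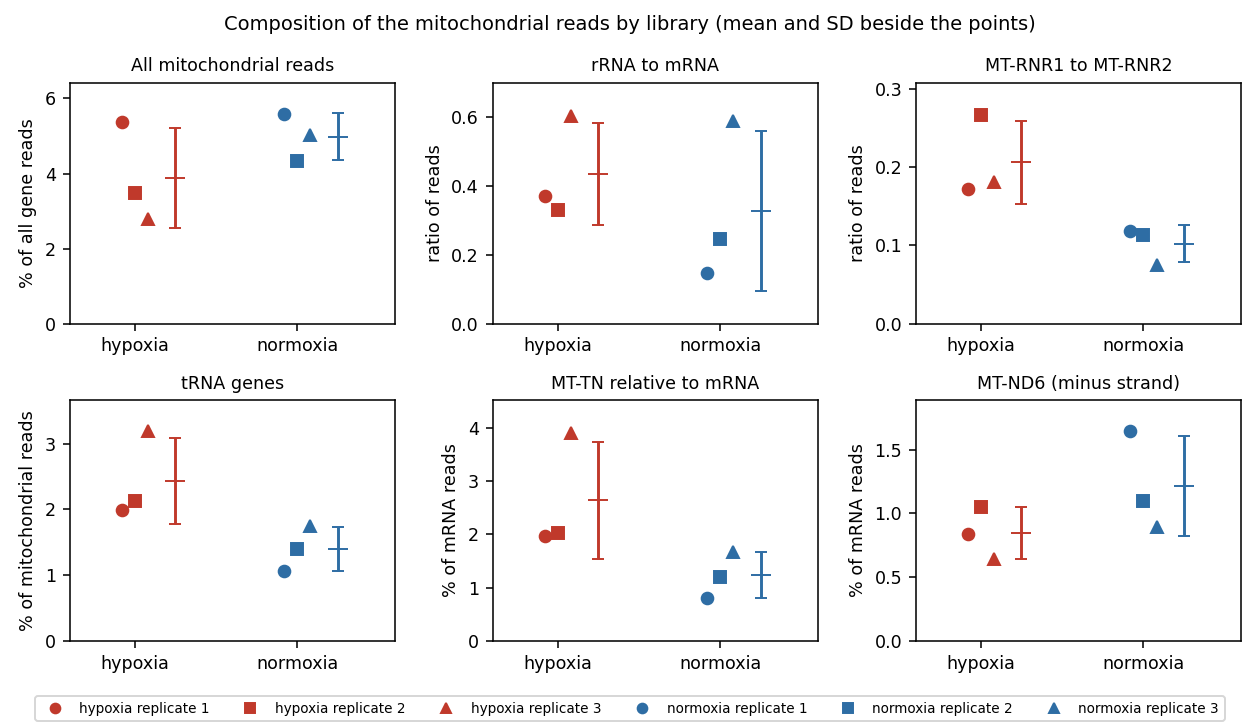
Each point is a library, with hypoxia left and normoxia right, and mean with SD beside the points; axes start at 0. Groups separate for MT-RNR1 to MT-RNR2 (0.171 to 0.267 against 0.0753 to 0.119) and for the tRNA share of mitochondrial reads. They also separate for MT-TN relative to mRNA (1.96% to 3.91% against 0.811% to 1.67%), and overlap in the other panels. The ratios of MT-RNR1 to MT-RNR2 and of MT-TN to mRNA were chosen after the values were seen, with no test.

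The tRNA genes divided into a few with many reads and a majority with almost none. MT-TN had 13859, 10038 and 11205 scaled reads in hypoxia and 7147, 6713 and 9032 in normoxia. All hypoxia libraries were higher, with a 1.53-fold ratio of means and a log2 difference of 0.62 (SE 0.22, 95% interval 0.11 to 1.12). Its unadjusted p was 0.0233 and its adjusted p 1.00 by limma, 0.588 to 1.00 over 19 alternatives. MT-TC averaged 3405 ± 754 in hypoxia and 3137 ± 1090.1 in normoxia, a log2 difference of 0.15 (SE 0.29). MT-TP averaged 1136 ± 258 in hypoxia and 1009 ± 573 in normoxia, a log2 difference of 0.28 (SE 0.38). The groups of both overlapped. Read for read, MT-TC per MT-TN was 0.308, 0.287 and 0.274 in hypoxia and 0.362, 0.362 and 0.486 in normoxia. MT-TN and MT-TC lie 31 bases apart, with no gene annotated between them. By strand, the minus strand's genes gave 2.58%, 2.89% and 3.57% of mitochondrial reads in hypoxia and 2.46%, 2.26% and 2.28% in normoxia. The groups did not overlap, and MT-TN and MT-ND6, which gave many of these reads, had differences of opposite sign. The ratios in these sentences were chosen after the values were seen, with no test.

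Per length, MT-TN stood at the level of the most abundant mRNAs, with 8973 ± 1502 in hypoxia and 5852 ± 945 in normoxia on the FPKM scale. Reads can reach past a gene this short, so per-length levels of tRNA genes are not comparable with those of long genes in full. Its nearest neighbour on the same strand, MT-TA (alanine), is separated by 1 base and had 1.04, 3.11 and 0 scaled reads in hypoxia and 1.06, 2.84 and 12.2 in normoxia. Reads from the opposite strand at these genes cannot be told apart, because no source used here gives the counting's strand setting.

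Of the other tRNA genes, MT-TL1 (leucine), MT-TY (tyrosine) and MT-TH (histidine) had means of at least 10 scaled reads over the 6 libraries. MT-TL1 had 18.7, 20.7 and 2.85 in hypoxia and 87.9, 13.3 and 57.4 in normoxia, a log2 difference of -1.95 (95% interval -4.02 to 0.12), or -1.04 without hypoxia replicate 3. MT-TY averaged 46.2 ± 26.9 in hypoxia and 62.2 ± 66.6 in normoxia, and its log2 difference of 0.24 has the opposite sign to its means. MT-TH averaged 3.46 ± 2.99 in hypoxia and 16.6 ± 22.6 in normoxia, a log2 difference of -1.18 (SE 2.21). The remaining 15 had 0 to 26 reads per library and together 62 reads in hypoxia and 154 in normoxia. MT-TV and MT-TM had 0 reads in every hypoxia library, where a count of 0 allows up to 3 reads per library. None of these genes was called in any fit, and which differences this depth could show was not tested.

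MT-ND5 and MT-ND6 kept an almost fixed ratio although they are read from opposite strands. Over the 6 libraries, MT-ND6 varied 7.87-fold and MT-ND5 7.80-fold. Their ratio was 0.382, 0.328 and 0.321 in hypoxia and 0.324, 0.343 and 0.378 in normoxia, a 1.19-fold range. Among all 78 pairs of mRNAs this was the narrowest range, beside a median of 2.27-fold and a widest of 7.89-fold. MT-ND1 with MT-CO1 followed at 1.26-fold, then MT-ND4L with MT-ND4, which share a single mRNA, at 1.31-fold. MT-ATP8 with MT-ATP6, also on a shared mRNA, varied 2.29-fold. MT-ATP8 gave 6.05% as many reads as MT-ATP6 in normoxia replicate 3 and 2.64% to 3.81% in the other libraries. MT-ND5 (chrM:12337-14148, plus strand) ends at the base before MT-ND6 (chrM:14149-14673, minus strand), and MT-ND5 mRNA is known to run on across the MT-ND6 region as its 3′ untranslated part. Without a strand setting, reads of that extension and of MT-ND6 mRNA cannot be told apart, so the light-strand share above may hold both.

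**Figure D4:**
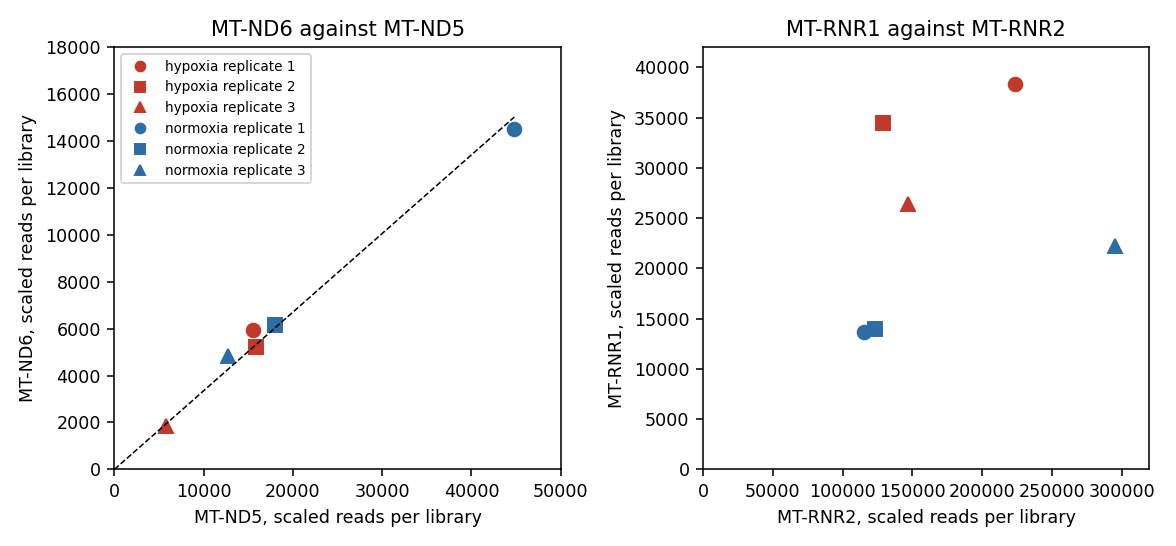
Scaled reads per library of MT-ND6 against MT-ND5 (left) and of MT-RNR1 against MT-RNR2 (right), linear axes from 0, hypoxia red and normoxia blue. The dashed line marks the median MT-ND6 to MT-ND5 ratio, on or near which every library lies, whereas the 3 hypoxia libraries have more MT-RNR1 for their MT-RNR2 than the 3 normoxia libraries.

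Differences were also set against position along the genome. For the 12 plus-strand mRNAs, Spearman's rho between start and log2 difference was -0.11, and with both rRNAs included it was -0.41 over 14 genes. These genes share libraries and a transcript, so the values are descriptions.

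Some reads were counted for nuclear copies of mitochondrial genes. The table holds 11 such copies, and 3 on chromosome 1 stood out. MTATP6P1 (chr1:633696-634376) had 12.2%, 12.4% and 15.5% as many reads as MT-ATP6 in hypoxia and 11.0%, 12.9% and 19.4% in normoxia. MTND2P28 had 6.72% to 9.04% as many as MT-ND2 over the 6 libraries, and MTCO1P12 0.193% to 0.331% as many as MT-CO1. The other 8 copies had 2 to 17 reads each over all libraries. MTATP6P1 averaged 3339 ± 1506 in hypoxia and 5881 ± 1067 in normoxia, a log2 difference of -0.90 (limma adjusted p = 1.00), close to the -0.82 of MT-ATP6. Reads of these near-identical sequences may be split between copy and gene, so both are uncertain. Adding all copies to the mitochondrial reads moved the difference in their share to -1.13 percentage points.

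Nuclear genes that serve mitochondrial gene expression held no member past the test. In 4 lists, 66 of 79 genes were tested, 0 were called (beside 0.0977% of all genes), 0 had an unadjusted p under 0.05, and 32 were positive and 34 negative. DNA transcription and maintenance had a median log2 difference of 0.06 over 16 genes. TFAM, which packages mitochondrial DNA and activates its promoters, had 709, 258 and 631 scaled reads in hypoxia and 329, 413 and 677 in normoxia (log2 difference 0.11, SE 0.44). POLRMT, the mitochondrial RNA polymerase, averaged 2529.7 ± 516 in hypoxia and 2865 ± 498 in normoxia (log2 difference -0.18, SE 0.24). Both genes' groups overlapped. TFB1M, which methylates the 12S rRNA, had the largest difference of this list, 0.50 (SE 0.33), followed by the mitochondrial topoisomerase TOP1MT (0.36) and the nucleoid-associated membrane protein ATAD3A (-0.32).

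Genes of RNA processing, modification and decay had a median of -0.14 over 30 genes, with 11 positive and 19 negative. LRPPRC, which keeps mitochondrial mRNAs stable and polyadenylated, had 779, 741 and 1067 in hypoxia and 526, 743 and 2059 in normoxia. Normoxia replicate 3 was high there, and the log2 difference was -0.13 (SE 0.48). The largest differences of this list were those of the RNA-binding proteins FASTKD3 (-0.53) and FASTKD2 (-0.35) and of the pseudouridine synthase PUS1 (-0.44). Groups did not overlap for ELAC2, which cuts tRNA 3′ ends, and MRM2, which methylates 16S rRNA, both lower in hypoxia, beside 2.72% of all genes tested. Translation factors had a median of -0.02 over 12 genes, with the back-translocating elongation factor GUF1 at -0.55, the exchange factor TSFM at 0.27 and the ribosome recycling factor MRRF at 0.21. Regulators of mitochondrial biogenesis had a median of 0.02 over 8 genes, with the coactivator PPRC1 at -0.58 and the transcription factors CREB1 and GABPB1 at 0.39 and -0.31. PPARGC1A and ESRRG were not analysed here.

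**Figure D5:**
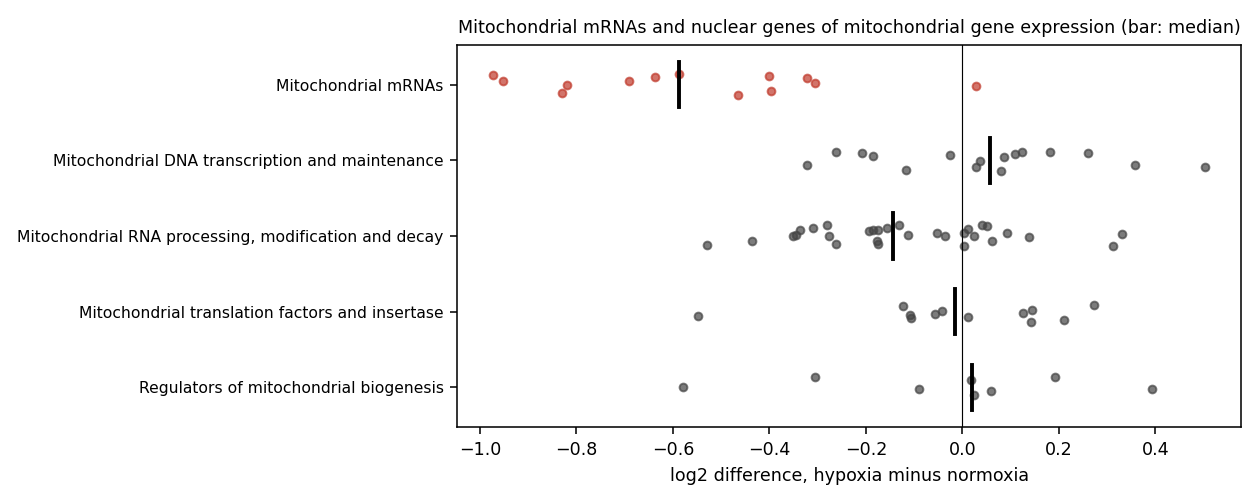
log2 difference (hypoxia minus normoxia) of each tested gene, a point, in the 13 mitochondrial mRNAs and 4 nuclear gene lists, with the median as a bar. The medians of the nuclear lists lie between -0.14 and 0.06, and that of the mitochondrial mRNAs is -0.59.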

How the data were processed

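The deposited signal holds, for each gene, whole reads over the library's size factor; it is named for FPKM, but 100% of values were whole multiples of 1 step per library (tolerance 0.05 of a step). The submitters' processing notes list CASAVA, HISAT2 2.0.5, featureCounts 1.5.0-p3 and the mouse build mm9; all 22153 identifiers are human, so no source used here gives the build behind the table, its annotation or the strand setting. Identifiers were matched to GENCODE 29 (GRCh38), which gave positions, lengths, GC content and sequences.

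The planned test assumed FPKM, so each scaled value was divided by summed exon length and mean library total. Genes with FPKM of at least 1 in 3 libraries (10237) were fitted as log2(FPKM + 0.1) with limma 3.58.1 (R 4.3.3, group as the only term, mean-variance trend, robust), two-sided, with Benjamini-Hochberg adjustment. For genes with few reads, log2 differences on this scale can be larger or smaller than those of DESeq2, or differ in sign. MT-TT was -1.88 by limma and -0.76 by DESeq2, and MT-TH was -1.18 by limma and -2.27 by DESeq2. edgeR 4.0.16 and DESeq2 1.42.0 were run on recovered reads as alternatives. Means ± SD are of scaled reads. Wilson intervals and floors cover counting error only. Intervals of log2 differences were built from limma's standard errors, which reflect the spread between libraries of a group.

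All members are named, tRNA genes with a mean of at least 10 scaled reads individually. From each list, members past the test or else the 3 with the largest differences are given, with TFAM, POLRMT and LRPPRC always, and ELAC2 and MRM2 were added after their values were seen. Members and lists were chosen with earlier results of these data known. Alternatives covered pseudocount, filter, scaling, test, GC correction, replicate block and each library left out.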

Additional observations from a re-analysis of the deposited data

How the results depend on the processing

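Mitochondrial genes called stayed at 0 in all 19 alternatives. The number of genes called over the whole table was 10 in the reported fit, 4 with no filter on low values, 50 by DESeq2, 22 after GC correction, and 1 to 20 when each library was left out (1 without hypoxia replicate 3, 20 without normoxia replicate 3). No source used here says whether same-numbered libraries were handled together, and these values cannot decide it. Same-numbered libraries had correlations of -0.40, 0.24 and 0.22 in their deviations from group means. The highest correlations were those of hypoxia replicate 2 with normoxia replicate 1 (0.61) and of hypoxia replicate 1 with normoxia replicate 3 (0.50). Only hypoxia replicate 3 and normoxia replicate 2 correlated best with their own number. With the replicate number as a block 19 genes were called, or 29 with GC correction as well, with 0 mitochondrial genes in either fit. The median mRNA difference ran from -0.89 to -0.25 over the fits that leave out a library. The 4 within-library measures kept their direction, from -1.85 to -0.57 points for the mitochondrial share, 0.02 to 0.24 for rRNA to mRNA, -0.53 to -0.15 points for the light-strand share and 0.65 to 1.26 points for the tRNA share. Mitochondrial genes at an unadjusted p under 0.05 were 1 to 8 over the alternatives, against 2 as reported; they were 7 with the replicate block (2.31% of all genes), 8 with GC correction as well (3.38%), and 1 after GC correction alone (4.28%). Some signs turned. MT-RNR2 was -0.072 with library totals, -0.10 by edgeR, -0.12 by DESeq2 and -0.028 after GC correction with or without the replicate block; MT-ND3 was -0.047 with library totals; MT-TY was -0.44 by edgeR and -0.43 by DESeq2. Of the tRNA genes with few reads, MT-TR was 0.71 by limma and -0.92 by DESeq2, MT-TG 0.87 and -0.47, and MT-TE 0.46 and -1.13. Leaving out single libraries also turned signs, with ranges of -0.24 to 0.44 for MT-RNR2, -0.63 to 0.074 for MT-ND1, -0.025 to 0.42 for MT-TC, -1.02 to 1.26 for MT-TY, -0.59 to 0.10 for MT-CO1, -0.31 to 0.29 for MT-ND3, -0.57 to 0.014 for MT-ND4L and -3.58 to 0.64 for MT-TH. Without a turn of sign, the remaining mRNAs ran from -1.34 to -0.43 (MT-ND5), -1.30 to -0.44 (MT-ND6), -1.22 to -0.41 (MT-ATP6), -1.14 to -0.45 (MT-ATP8), -1.05 to -0.25 (MT-ND2), -1.04 to -0.25 (MT-CO2), -0.89 to -0.36 (MT-CYB), -0.71 to -0.23 (MT-CO3) and -0.66 to -0.14 (MT-ND4), and the tRNA genes MT-TL1 and MT-TP from -2.75 to -1.04 and 0.032 to 0.72. The cause was not tested. Few reads limit the 15 low tRNA genes and also MT-TL1, MT-TY and MT-TH, which had as few as 3, 6 and 0 reads in a library.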

Other observations

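MT-ND4L gave 19.3%, 20.5% and 19.9% as many reads as MT-ND4, its partner on the same mRNA, in hypoxia and 19.1%, 18.9% and 15.6% in normoxia. The 3 hypoxia libraries lay above the 3 normoxia libraries, by less than 1 percentage point for the nearest values. MT-ND2 and MT-ATP6, which are not neighbours, held the fourth narrowest ratio of the 78 pairs of mRNAs, with a 1.35-fold range over the 6 libraries. These pairs were chosen after their values were seen, and no test was run.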
